A study of Homo sapiens with 27 samples.

Results

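The collagen genes were followed across EA.hy926 cells that had met young or senescent mesenchymal stromal cells (MSCs). Members were the rows of the gene count table whose symbol reads COL, a number, A and a number, without antisense genes or pseudogenes. They came to 44 of 60604 gene entries. By the structure of their proteins, 11 are fibrillar, 8 belong to basement membranes, 5 form beaded filaments, 3 are short-chain collagens and 17 are others.

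EA.hy926 is an established human line, a hybrid of umbilical vein endothelial cells and A549 lung carcinoma cells, and ASC52telo is an adipose MSC line immortalised with hTERT. Control cells were kept alone. The other groups spent 48 h on decellularised extracellular matrix (ECM) of MSCs, in their conditioned medium (CM) mixed 1:1 with fresh medium, or in direct co-culture with equal cell numbers. Young MSCs were untreated, and senescent MSCs had been given mitomycin C, which crosslinks DNA, at 1.5 µg/mL for 18 h and kept for 10 days. MSCs were stripped from their matrix over 5 min by detergent (Triton X-100, 0.5%) and ammonium hydroxide (20 mM). This made 7 groups: control, young ECM, senescent ECM, young CM, senescent CM, young co-culture and senescent co-culture. The labels give 4 replicates to each group but senescent co-culture, which has replicates 2 to 4. Whether replicates were separate cultures is not said, so the p-values here reflect library-to-library spread, part or all of which may be technical. They also do not say whether the cell types were separated after co-culture, and the extraction protocol names MSCs where the cell type label names endothelial cells. In such mixed RNA, more cells of a type and more RNA per cell cannot be told apart.

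A collagen is a trimer of alpha chains wound into a triple helix. Fibrillar types I, III and V build the cables of connective tissue and are made mainly by fibroblasts and other stromal cells. Type IV chains form the sheet-like network under endothelium and epithelium, with types XV and XVIII beside it, and type VI forms beaded filaments around cells. Type VIII is a short-chain collagen of blood vessel walls. The FACIT collagens (types IX, XII, XIV, XVI and others) attach to fibrils, while types XIII and XVII span the plasma membrane. Chains are hydroxylated and folded in the endoplasmic reticulum, trimmed and crosslinked outside the cell, bound by integrins and discoidin domain receptors, and cleaved by collagenases.

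Libraries held 66320519 to 111512357 counts. Levels are counts relative to library size (CPM), scaled by TMM factors over all 27 libraries. They are divided by exon length (CPM per kb) wherever genes are ranked against each other. Ratios between genes are of CPM, without that division. The endothelial markers PECAM1 (412 to 653 CPM) and CDH5 (192 to 307 CPM) were high in control replicates 2 to 4, but CLDN5 and EMCN stayed under 0.1 CPM in all libraries. Replicate 1 stood apart from replicates 2 to 4 in the 6 groups that have it. TERT, which the MSC line carries as its immortalising gene, was at 655 to 1298 CPM in replicate 1 of the control, ECM and CM groups and at 1.198 to 2.269 CPM in their replicates 2 to 4. Replicate 1 of young co-culture had a TMM factor of 0.55, against 0.94 to 1.10 in the other 26 libraries. Group values and tests therefore rest on replicates 2 to 4, listed in that order, and replicate 1 is given apart.

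Type IV genes lie in head-to-head pairs. COL4A6 and COL4A2, 1 chain of each of 2 pairs, were among the 4 collagens that differed between matrix and medium, so promoters of these pairs are shown first. The RefSeq table of the GRCh38.p14 assembly gave windows from 250 bases before to 50 after a start for 32 of the 44 genes. COL4A1 and COL4A2 on chromosome 13 start 127 bp apart on opposite strands, and their windows share 226 bp. COL4A5 and COL4A6 on chromosome X start 380 bp apart with 121 shared bp, and a further COL4A6 start lies 1416 bp from that of COL4A5. In the sequences, capitals mark CCAAT and GGGCGG (a GC box) on either strand, so that ATTGG and CCGCCC are their reverse forms.
COL4A2 (chr13:110307034-110307333, plus strand): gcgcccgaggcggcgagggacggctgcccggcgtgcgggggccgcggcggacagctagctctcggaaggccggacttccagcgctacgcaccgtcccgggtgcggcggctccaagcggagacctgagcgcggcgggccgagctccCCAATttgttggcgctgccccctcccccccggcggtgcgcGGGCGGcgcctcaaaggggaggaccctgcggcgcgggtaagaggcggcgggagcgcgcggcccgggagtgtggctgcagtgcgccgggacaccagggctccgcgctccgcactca
COL4A5 (chrX:108439588-108439887, plus strand): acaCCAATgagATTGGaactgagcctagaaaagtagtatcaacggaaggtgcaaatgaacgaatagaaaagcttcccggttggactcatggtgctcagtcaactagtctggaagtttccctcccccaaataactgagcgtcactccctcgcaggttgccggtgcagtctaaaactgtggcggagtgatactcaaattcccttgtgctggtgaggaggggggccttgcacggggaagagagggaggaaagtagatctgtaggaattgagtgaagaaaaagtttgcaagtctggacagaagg
COL4A6 (chrX:108439409-108439708, minus strand): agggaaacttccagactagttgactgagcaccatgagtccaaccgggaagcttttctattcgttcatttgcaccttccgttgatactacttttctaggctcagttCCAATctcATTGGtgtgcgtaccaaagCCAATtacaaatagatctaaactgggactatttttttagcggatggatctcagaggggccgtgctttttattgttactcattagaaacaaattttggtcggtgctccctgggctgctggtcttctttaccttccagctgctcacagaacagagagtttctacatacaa
The COL4A2 window held 1 CCAAT and 1 GC box, at a GC content of 77.7%. The COL4A5 window held a CCAAT on each strand, and the COL4A6 window above held 3 and no GC box, at GC contents of 49.3% and 43.7%. Of 35116 promoter windows of this length, 34.61% held CCAAT and 44.95% held a GC box, and among 44 windows of collagen genes 14 and 24 did. TATAAA on either strand was found in 8 of those 44 and in 11.53% of all windows. ATTGG can share its last bases with GGGCGG.

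In control cells, 12 collagens stood above 2 CPM per kb of exon, and type I was not among them. Per kb of exon, COL5A2 led at 17.9 ± 7.25 CPM (SD, n = 3 here and below), followed by the short-chain COL8A1 at 17.5 ± 6.73, which did not differ from it beyond the spread. COL18A1, the precursor of endostatin, stood at 10.3 ± 4.44 CPM per kb and COL17A1, a hemidesmosome component of epithelia, at 10.2 ± 3.11. COL5A1, which joins COL5A2 in type V fibrils that seed type I fibrils, was at 6.67 ± 3.203 CPM per kb and COL4A6 at 5.81 ± 2.28. Next came COL6A1 at 4.70 ± 1.69 and COL4A5 at 3.199 ± 1.135 CPM per kb. COL4A2 (2.35 ± 0.87), COL27A1 (2.25 ± 1.01), COL4A1 (2.13 ± 0.95) and the membrane-spanning COL13A1 (2.12 ± 0.83 CPM per kb) were level with one another. The thirteenth, COL9A3, was lower at 0.89 ± 0.27 CPM per kb. COL1A1 stood at 0.60 ± 0.02 CPM per kb, COL1A2 at 0.51 ± 0.02 and COL3A1 at 0.47 ± 0.07. Of type VI, whose filaments need 3 different chains, COL6A2 was at 0.77 ± 0.06 and COL6A3 at 0.07 ± 0.01 CPM per kb, well under COL6A1. COL8A2 led the remaining short-chain genes with less than 0.01 CPM per kb. Without division by length the same 12 genes led, with COL8A1 first.

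**Figure D1:**
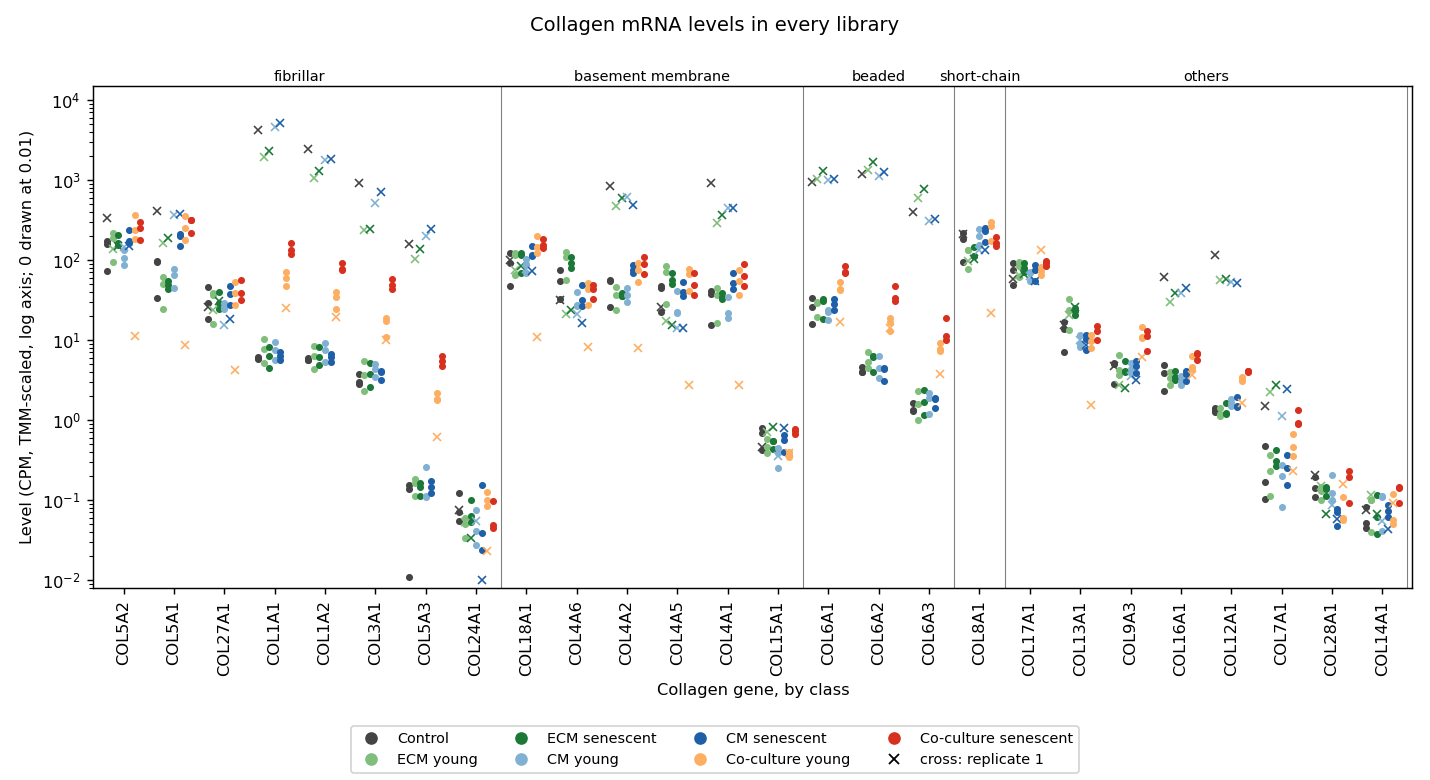
Level of the 26 tested collagens in every library (CPM, log axis), by class and by mean control level, with dots for replicates 2 to 4 and crosses for replicate 1. Control, ECM and CM dots of COL1A1 lie between 4.43 and 10.4 CPM, its co-culture dots lie at 47.8 CPM or more, and 5 of its crosses lie at 1915 CPM or more.

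Control replicates differed in many collagens, abundant and scarce, but less in type I and some others. Replicate 3 was the lowest control library for COL5A2 (173, 72.0 and 156 CPM), COL8A1 (215, 93.6 and 185 CPM) and COL4A1 (41.5, 15.5 and 37.4 CPM), and also for the scarcer COL9A3 (5.14, 2.79 and 5.02 CPM) and COL16A1 (4.82, 2.31 and 3.86 CPM). The dip was not confined to control. For COL5A2, COL8A1 and COL4A1, replicate 3 was also the lowest on young ECM, in both CM groups and in young co-culture. On senescent ECM and in senescent co-culture another replicate was lowest. On young ECM, COL4A1 held 16.1 CPM in replicate 3 and up to 45.1 CPM in the others. For COL1A1 the 3 control libraries held 5.90, 6.12 and 5.70 CPM, and for COL1A2 5.54, 5.97 and 5.56 CPM. The spread was also small for COL12A1 (1.34 ± 0.07 CPM, SD), COL6A2 (4.16 ± 0.33), COL6A3 (1.41 ± 0.17) and COL3A1 (3.19 ± 0.45). Summed over the family, control libraries held 462.6 to 1045 CPM of collagen mRNA. Fibrillar genes supplied a mean of 31.6% of it, basement membrane genes 31.9%, short-chain genes 20.5% and type VI 3.99%.

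Replicate 1 showed another collagen profile. In the control, ECM and CM groups its summed collagen level was 7797 to 13370 CPM. Fibrillar genes supplied 45.9% to 68.2% of that sum and type VI 18.8% to 39.6%. Against the mean of control replicates 2 to 4, COL5A3 was 1587-fold higher in control replicate 1 (159.6 against 0.10 CPM). COL1A1, at 4174 against 5.91 CPM, was 706-fold higher, and COL1A2 was 433-fold higher. COL3A1, COL6A2 and COL6A3 were 286-fold, 284-fold and 280-fold higher. Basement membrane genes split: COL4A1 was 29.2-fold and COL4A2 18.5-fold higher, while COL4A5 and COL4A6 were at 0.68 and 0.58 times the mean. COL8A1 (1.28 times), COL18A1 (1.14 times), COL27A1 (0.81 times) and COL17A1 (0.81 times) also stayed near their control level. In replicate 1 of young co-culture the picture was different again: COL17A1 was at 134 CPM, 1.84 times its group mean, but without the TMM factors it was at 73.8 against 70.1 to 88.0 CPM, and COL5A1 was at 8.54 CPM, 0.03 times its mean.

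In direct co-culture types I, III and VI, which were low in control libraries apart from COL6A1, were higher than in control. Which cells gave the low control signal was not tested. With young MSCs 10 of the 25 tested collagens passed an adjusted p of 0.05 upwards and 0 downwards (edgeR quasi-likelihood test on counts, Benjamini-Hochberg adjustment over all genes), where 9.68% of all genes passed, 6.71% upwards and 2.97% downwards. With senescent MSCs 11 of 25 rose and 0 fell, where 8.05% of all genes passed, 5.82% upwards and 2.23% downwards. The median log2 fold change of the tested collagens was 0.86 and 1.08, against 0.01 and 0.02 over all genes. Both comparisons use the same control libraries. At an unadjusted p under 0.05 stood 17 collagens in each, against 23.9% and 20.9% of all genes.

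Among fibrillar collagens, 5 of the 7 tested rose in each co-culture. COL1A1 (ENSG00000108821.14, chr17:50183289-50201632, minus strand, GRCh38 with GENCODE 29 annotation) encodes the alpha 1 chain of type I collagen. It went from 5.90, 6.12 and 5.70 CPM in control to 71.2, 59.9 and 47.8 with young and 165, 133 and 117 with senescent MSCs. The log2 fold changes were 3.37 ± 0.19 (SE, adjusted p = 5.22e-06, edgeR) and 4.598 ± 0.204 (adjusted p = 5.98e-07, edgeR). COL1A2, its partner chain, held 39.5, 34.5 and 24.6 CPM with young and 91.4, 77.8 and 75.0 with senescent MSCs, changes of 2.57 ± 0.19 and 3.89 ± 0.20. COL3A1, which forms fibrils with type I in elastic tissue, went from 2.85 to 3.70 CPM in control to 10.97 to 18.59 with young and 43.6 to 58.0 CPM with senescent MSCs (2.33 ± 0.22 and 4.02 ± 0.23). COL5A3, a rarer type V chain, rested on 15, 15 and 1 counts in control and on 188 to 525 in the 6 co-culture libraries. Its log2 fold changes were 4.25 ± 0.42 and 5.77 ± 0.43, and its exons share 270 bp with an antisense gene, so that without a stated strand setting its counts are uncertain. COL5A1 was already abundant in control (94.0, 33.2 and 96.5 CPM) and reached 359, 179 and 252 with young and 220, 315 and 318 CPM with senescent MSCs. Its log2 fold changes of 1.86 ± 0.36 and 1.98 ± 0.36 were nearly the same in both. COL5A2, with 1.00 ± 0.33 and 0.90 ± 0.33, did not pass (adjusted p = 0.0805 and 0.128, edgeR), nor did COL27A1.

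All 3 tested type VI genes rose in both co-cultures. COL6A1 went from 33.9, 15.9 and 25.5 CPM in control to 53.2, 41.7 and 43.5 with young and 83.4, 71.0 and 68.1 with senescent MSCs. Its log2 fold changes of 0.92 ± 0.23 and 1.61 ± 0.23 were the smallest of the 3, and the first lost its call without control replicate 4 (adjusted p = 0.104, edgeR) or young co-culture replicate 2 or 4 (0.121 and 0.0669). COL6A2 went from 3.99, 4.54 and 3.94 to 16.7, 19.0 and 13.1 and to 47.3, 33.6 and 31.0 CPM (2.01 ± 0.20 and 3.22 ± 0.21). COL6A3 went from 1.29, 1.61 and 1.33 to 9.26, 7.21 and 7.68 and to 11.2, 9.98 and 18.6 CPM (2.55 ± 0.24 and 3.27 ± 0.24). COL6A1 and COL6A2 came closer to equal levels. COL6A1 exceeded COL6A2 3.51- to 8.50-fold in control, 2.196- to 3.312-fold with young and 1.76- to 2.19-fold with senescent MSCs, and in replicate 1 of the control, ECM and CM groups it was at 0.75 to 0.87 times COL6A2. COL6A2 over COL6A3 showed no such approach with senescent MSCs: the ratio was 2.82 to 3.08 in control, 1.71 to 2.63 with young and 1.67 to 4.23 with senescent MSCs.

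None of the 6 tested basement membrane collagens passed in either co-culture. At an unadjusted p under 0.05 (edgeR) stood 5 of the 6 with young and 3 with senescent MSCs, against 23.9% and 20.9% of all genes. Their median log2 fold change was 0.74 and 0.70, against 0.01 and 0.02 over all genes. COL4A1 held 41.5, 15.5 and 37.4 CPM in control, 74.8, 37.0 and 53.9 with young and 47.3, 63.1 and 88.9 with senescent MSCs, with log2 fold changes of 0.85 ± 0.35 and 1.13 ± 0.36 (adjusted p = 0.166 and 0.0806, edgeR). COL4A2 was closest to the threshold with senescent MSCs at 1.01 ± 0.28 (adjusted p = 0.0519, edgeR). COL18A1, with 0.86 ± 0.29 and 0.91 ± 0.29, was similar in size, and 1401 bp of its exons overlap SLC19A1 on the opposite strand. COL4A6 was the one type IV gene with negative estimates, -0.37 ± 0.29 and -0.33 ± 0.29. The short-chain COL8A1, the most abundant collagen by CPM in control, did not pass either (0.61 ± 0.27 and 0.08 ± 0.27).

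Of the other classes, the FACIT genes COL12A1 and COL9A3 rose in both co-cultures and COL7A1, of the anchoring fibrils under epithelia, with senescent MSCs. COL12A1 held 1.28, 1.41 and 1.33 CPM in control, 3.44, 3.04 and 3.26 with young and 3.98, 4.12 and 4.12 with senescent MSCs. COL9A3 rose from 5.14, 2.79 and 5.02 CPM to 14.67, 10.47 and 11.02 and to 11.25, 12.82 and 7.372 CPM (1.52 ± 0.26 and 1.33 ± 0.26). Unlike COL1A1, it was not high in replicate 1, where control held 1.08 times the mean of replicates 2 to 4. The gene shares 45 bp of exon with TCFL5 on the opposite strand. COL7A1 rested on 10 to 52 counts in control and 66 to 118 with senescent MSCs (2.10 ± 0.46), and lost its call without control replicate 4 or senescent co-culture replicate 3 (adjusted p = 0.0791 and 0.0782, edgeR). COL17A1, COL13A1, COL16A1, COL14A1 and COL28A1 did not pass.

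**Figure D2:**
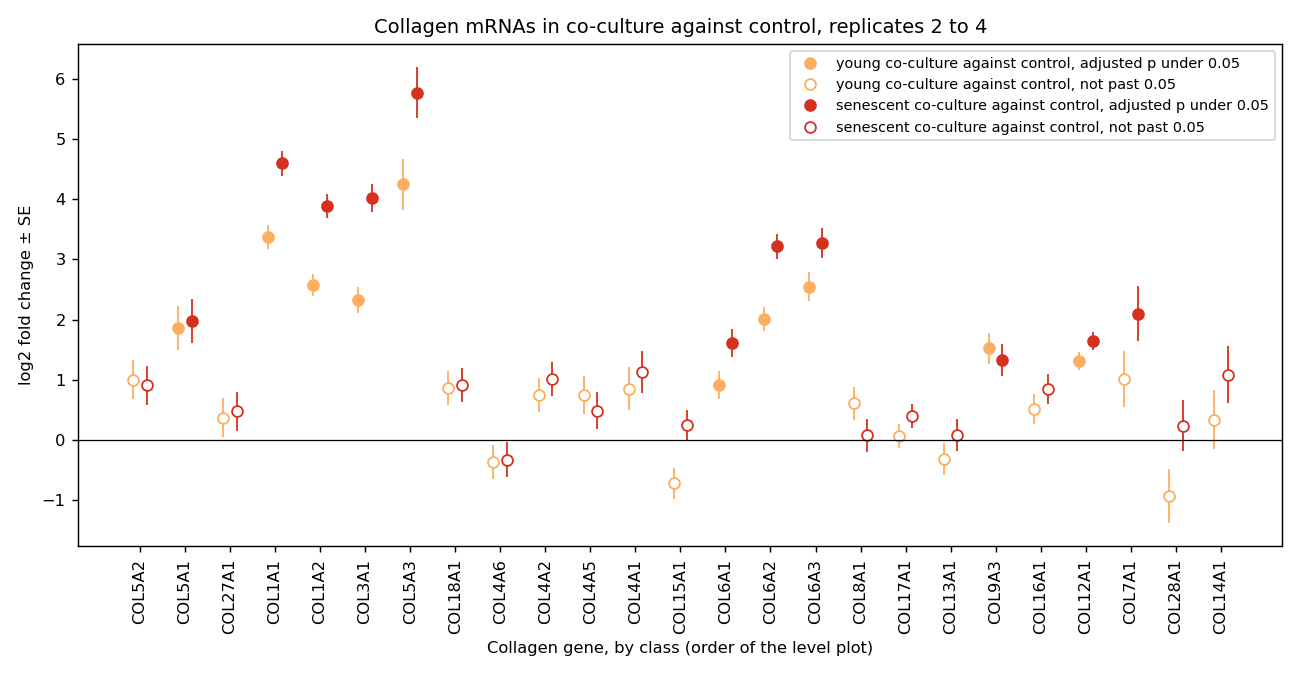
log2 fold change ± SE (edgeR, 3 libraries a group) of the 25 tested collagens in young (orange) and senescent (red) co-culture against control, filled where the adjusted p is under 0.05. The filled points gather at types I, III, V and VI, with COL5A3 highest at 4.25 and 5.77, and no type IV point is filled.

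Cell type markers also changed in co-culture, among them endothelial and epithelial markers, which were high in control as well. Of 14 stromal markers, 10 rose with young and 11 with senescent MSCs. Without FBN1, which supplied most of the stromal sum in control, their summed level was 10.1 to 11.1 CPM in control. It was 28.2 to 43.4 with young and 46.9 to 75.1 CPM with senescent MSCs, and none of the 14 was at 0 in a whole group. Of 13 tested endothelial markers 11 and 10 rose, of 6 epithelial markers 2 in each, and of 3 smooth muscle markers 2 in each. The part of these markers in the collagen changes was not tested. Scaling libraries on the endothelial markers instead of TMM moved the median of all genes by -1.03 in both comparisons. Such a shift lowers all genes, and the share of all genes called under it is not given here. The counts that follow are therefore not a result about collagens. Relative to those markers 8 collagens were higher and 7 lower with young MSCs, COL6A1 no longer rose (-0.09) and COL12A1 lost its call, and 10 were higher and 5 lower with senescent MSCs, where COL9A3 lost its call. COL4A6, COL13A1, COL15A1 and COL17A1 were lower in both, COL16A1, COL27A1 and COL28A1 with young MSCs and COL8A1 with senescent MSCs, named after their values were seen. With replicate 1 included, no collagen passed in any co-culture comparison.

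Senescent and young co-culture were then set against each other. COL1A1, COL1A2, COL3A1 and COL6A2 were higher with senescent MSCs, and no collagen was called lower. Of 25 tested, 4 passed, where 0.395% of all genes passed, 0.316% upwards and 0.079% downwards, and the median log2 difference of the tested collagens was 0.34 against 0.00 for all genes. COL3A1 differed by 1.69 ± 0.21 (adjusted p = 0.00429, edgeR), COL1A2 by 1.32 ± 0.18 (0.00734), COL1A1 by 1.22 ± 0.18 (0.0109) and COL6A2 by 1.21 ± 0.20 (0.0239). The libraries of the 2 groups did not overlap for any of the 4, which adds no support, as the test on these libraries picked the genes. COL5A3 did not pass (1.53 ± 0.32, adjusted p = 0.0946, edgeR), nor did COL6A3 (0.73 ± 0.22) or COL6A1 (0.70 ± 0.23), and COL5A1 overlapped at 179 to 359 against 220 to 318 CPM. COL3A1 held its call in all 6 fits that left out 1 library, and COL1A2 lost it without senescent replicate 2 (adjusted p = 0.0616, edgeR). COL1A1 lost it without young replicate 3 or 4 or senescent replicate 2 or 3 (adjusted p of 0.0507 to 0.0801, edgeR), and COL6A2 without young replicate 2 or 4 or senescent replicate 2 or 3 (0.0774 to 0.176). On endothelial-marker scaling COL6A2 was not called (1.202, adjusted p = 0.125, edgeR).

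Among the stromal markers, LUM, DCN, LRRC15 and MEDAG, 4 of 14, were also higher with senescent MSCs, and their part in the collagen difference was not tested. TERT ran the other way, at 7.91, 6.26 and 6.01 CPM with young and 4.38, 3.86 and 2.97 CPM with senescent MSCs, though its own difference of -0.84 did not pass (adjusted p = 0.134, edgeR). COL1A1 was therefore 7.96 to 9.57 times TERT with young MSCs and 34.6 to 39.4 times with senescent MSCs. In replicates 2 to 4 of control, ECM and CM the ratio was 3.09 to 5.44, and in their replicate 1 it was 1.79 to 7.56. Across these replicates 2 to 4, log2 levels of COL1A1 and TERT had a Pearson correlation of 0.77, and of 0.86 after subtraction of group means. The chains of type I also kept different proportions. COL1A1 was 1.56 to 1.94 times COL1A2 in the 6 co-culture libraries, 0.92 to 1.24 times in the 15 control, ECM and CM libraries and 1.70 to 2.78 times in replicate 1 of those groups.

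**Figure D3:**
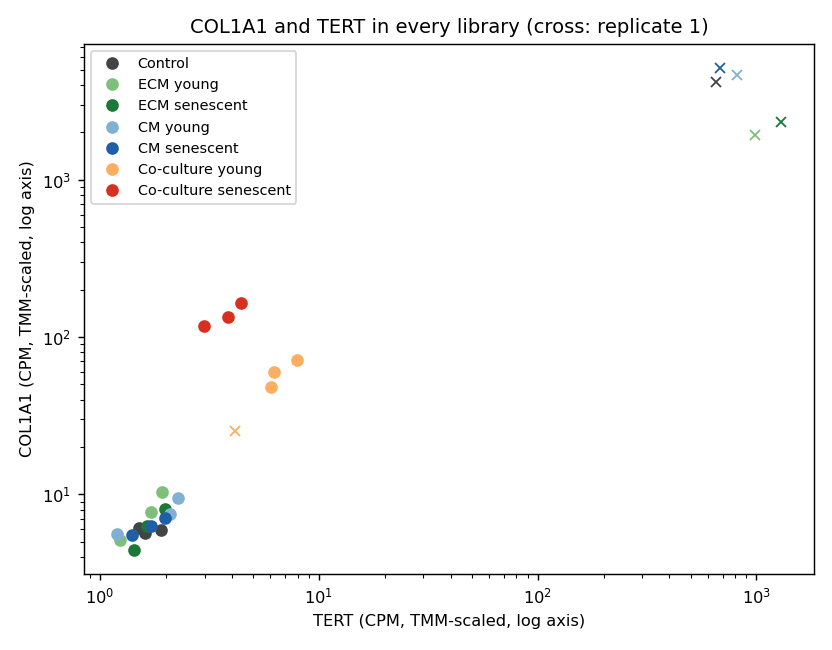
COL1A1 against TERT in every library (CPM, log axes), with dots for replicates 2 to 4 and crosses for replicate 1. Senescent co-culture dots lie highest among the dots for COL1A1 (117 to 165 CPM) with TERT of 2.97 to 4.38 CPM, left of young co-culture, and 5 crosses lie at the upper right at 655 CPM of TERT or more.

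The senescence effect in co-culture was compared with that on ECM and in CM in 1 fit of all 7 groups. Of 26 tested collagens, 0 passed against ECM and 0 against CM, where 0.0487% (0.0379% upwards, 0.0108% downwards) and 0.103% (0.0703% upwards, 0.0324% downwards) of all genes did, though 6 and 7 had an unadjusted p under 0.05, against 2.93% and 5.51% of all genes. The largest estimates were for COL3A1, 1.70 ± 0.40 (adjusted p = 0.346, edgeR) and 1.90 ± 0.40 (adjusted p = 0.103, edgeR). DESeq2 called COL1A1 and COL3A1 in the first and also COL1A2 and COL6A2 in the second. With a replicate block, edgeR called COL1A1, COL1A2, COL3A1 and COL6A2 in both, so the absence of calls depends on the model. The shares of all genes above belong to the main test. Those for DESeq2 and the block are not given here, so these calls do not mark the collagens out.

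Neither matrix nor medium moved a collagen past the threshold against control in the main edgeR test, which used no replicate block. Of 24 tested, 0 passed on young ECM (0.649% of all genes passed, 0.461% upwards and 0.189% downwards), on senescent ECM (0.3%, 0.222% upwards and 0.0777% downwards), in young CM (0%) and in senescent CM (0.505%, 0.305% upwards and 0.2% downwards), by the edgeR test. At an unadjusted p under 0.05 stood 2, 2, 2 and 4, against 8.52%, 6.79%, 4.7% and 6.36% of all genes, so the first 3 were near the share of all genes. The median log2 fold changes of the tested collagens were 0.17, 0.16, -0.15 and 0.17. Over the 12 ECM and CM libraries COL1A1 ranged from 4.43 to 10.4 CPM, around the 5.70 to 6.12 CPM of control, and 0 of 13 tested stromal markers passed. The highest estimate was that of COL5A1 in senescent CM, which held 208, 148 and 198 CPM against 94.0, 33.2 and 96.5 in control, without overlap (1.32 ± 0.36, adjusted p = 0.160, edgeR). DESeq2 called it (adjusted p = 0.0204), as did edgeR with a replicate block. On young and senescent ECM the highest estimates were for COL13A1 (0.89 ± 0.31 and 0.87 ± 0.31) and COL4A6 (0.86 ± 0.32 and 0.77 ± 0.32).

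Senescence of the MSCs made no difference that the main edgeR test called on ECM or in CM, though edgeR with a replicate block called COL5A1 in CM. Between senescent and young ECM 0 of 24 collagens passed and 0 had an unadjusted p under 0.05, where 0% and 0.783% of all genes did. The estimates ran from -0.32 (COL1A1) to 0.47 (COL7A1). Between senescent and young CM 0 of 24 passed, where 0.0167% of all genes did, with 5 at an unadjusted p under 0.05, against 5.41% of all genes. COL5A1 was again highest, at 208, 148 and 198 against 64.6, 44.6 and 77.6 CPM (1.54 ± 0.36, adjusted p = 0.325, edgeR; DESeq2 adjusted p = 0.0146). COL4A2, at 86.9, 68.7 and 75.0 against 36.4, 29.9 and 45.0 CPM, came next (1.03 ± 0.27). The effect of senescence in CM minus that on ECM passed for 0 of 24 collagens, with 0% of all genes passing and 3 collagens at an unadjusted p under 0.05, against 2.13% of all genes.

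Set directly against each other, medium and matrix did differ in 4 collagens. COL4A6 and COL13A1 were lower in CM than on ECM of either kind, and COL5A1 and COL4A2 were higher in senescent CM than on senescent ECM. In young CM against young ECM 0 of 24 were called higher and 2 lower, where 3.35% of all genes passed, 1.2% higher and 2.15% lower. In senescent CM against senescent ECM 2 were higher and 2 lower, where 4.9% of all genes passed, 2.14% higher and 2.75% lower.

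COL4A6 (ENSG00000197565.16, chrX:108155607-108439497, minus strand) held 110, 55.9 and 126 CPM on young ECM and 26.5, 27.5 and 39.8 CPM in young CM (-1.61 ± 0.33, adjusted p = 0.0126, edgeR). On senescent ECM it held 108, 90.8 and 78.6 CPM against 48.8, 31.8 and 26.5 in senescent CM (-1.36 ± 0.33, adjusted p = 0.0229, edgeR). Control, at 75.0, 32.7 and 54.1 CPM, overlapped the libraries of both sides. COL13A1 (ENSG00000197467.17, chr10:69801867-69964275, plus strand) held 23.4, 13.2 and 32.3 CPM on young ECM and 11.4, 8.79 and 8.21 in young CM (-1.25 ± 0.31, adjusted p = 0.0398, edgeR). On senescent ECM it held 24.8, 20.7 and 22.7 against 11.7, 10.1 and 7.52 CPM in senescent CM (-1.21 ± 0.31, adjusted p = 0.0351, edgeR). In none of the 4 contrasts did the ECM and CM libraries overlap, which adds no support, as the test on these libraries picked the genes.

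COL5A1 (ENSG00000130635.16, chr9:134641774-134844843, plus strand) went the other way, with 55.3, 48.4 and 43.5 CPM on senescent ECM and 208, 148 and 198 in senescent CM (1.92 ± 0.37, adjusted p = 0.0053, edgeR). COL4A2 (ENSG00000134871.19, chr13:110305812-110513209, plus strand) held 39.0, 35.5 and 35.9 CPM on senescent ECM and 86.9, 68.7 and 75.0 in senescent CM (1.08 ± 0.27, adjusted p = 0.0279, edgeR). Its exons share 81 bp with COL4A2-AS1 on the opposite strand. COL5A1 passed in all 6 fits that left out 1 library and COL4A2 in 0 (adjusted p of 0.0597 to 0.117, edgeR). COL4A6 passed between the young groups only without ECM replicate 3 or CM replicate 4 and between the senescent groups only without ECM replicate 4 or CM replicate 2, with adjusted p up to 0.0713 and 0.146 (edgeR) otherwise. COL13A1 passed between the young groups only without ECM replicate 3 and between the senescent groups in 0 of 6 fits (adjusted p up to 0.209 and 0.192, edgeR). No stromal marker passed beside these genes (0 of 13 in either contrast, at 9.09 to 15.3 CPM summed without FBN1), while 3 of 6 tested epithelial markers were higher in CM in both, with a summed level of 1027 to 1319 CPM on ECM and 3383 to 5292 CPM in CM. Of 13 tested endothelial markers, 1 was higher and 1 lower in young CM than on young ECM, and 2 were higher and 1 lower in senescent CM, with a median log2 difference of -0.14 and 0.33. Summed over the list they held 2853 to 4170 CPM on ECM and 2193 to 3483 CPM in CM. The part of the epithelial and endothelial markers was not tested.

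**Figure D4:**
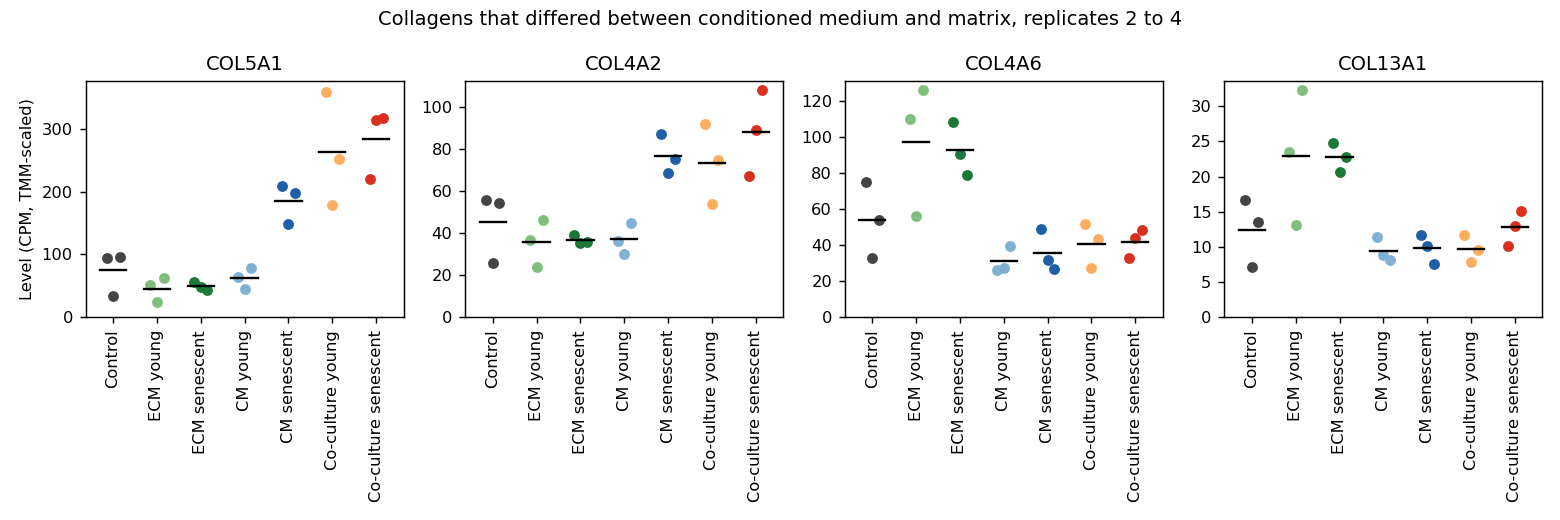
Level (CPM) of COL5A1, COL4A2, COL4A6 and COL13A1 in replicates 2 to 4 of each group, with points for libraries and a bar for the mean. COL4A6 and COL13A1 have their highest means on ECM, where young replicate 3 (55.9 and 13.2 CPM) lies within the range of control, and COL5A1 points are at 148 CPM or more in senescent CM and both co-cultures and at most 96.5 CPM elsewhere.

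Partner chains did not follow each other equally. Their ratios are of CPM without division by exon length, so they compare groups and not the amounts of the chains. Within a library, COL4A6 was 1.50 to 2.01 times COL4A5 on ECM of both kinds, 1.21 to 1.61 times in control, 0.97 to 1.23 times in young CM, 0.67 to 0.93 times in senescent CM and 0.64 to 0.90 times in co-culture. COL4A5 itself had a smaller estimate between medium and matrix (-1.07 ± 0.36, adjusted p = 0.130 for young CM against young ECM, edgeR). With a replicate block edgeR called it in that comparison, and its difference from COL4A6 was not tested. COL4A2 was 1.00 to 1.68 times COL4A1 over the 15 control, ECM and CM libraries. Across those libraries the log2 levels of COL4A1 and COL4A2 had a Pearson correlation of 0.90 and those of COL4A5 and COL4A6 one of 0.85, while across the pairs COL4A1 with COL4A6 gave 0.30 and COL4A1 with COL4A5 0.72. After subtraction of group means the values were 0.98, 0.93, 0.93 and 0.97, so partners did not stand out from other chains. The points share library scaling and the dips of many collagens, though not of all, seen in control replicate 3. For COL4A1, replicate 3 was also the lowest on young ECM and in both CM groups, though not on senescent ECM. In senescent CM, COL4A2 (68.7 to 86.9 CPM) lay above its libraries of the other 4 groups without MSCs, while COL4A6 (26.5 to 48.8 CPM) lay below all its ECM libraries. Of type V, COL5A2 was 3.41 to 3.87 times COL5A1 on ECM, 1.62 to 2.17 times in control, 1.64 to 1.95 times in young CM and 0.87 to 1.15 times in senescent CM. In co-culture it was 0.79 to 1.02 times COL5A1, so the ECM libraries lay apart from all the others. Per kb of exon, mean COL5A2 stayed above COL5A1 in co-culture, at 34.93 against 23.55 with young and 32.47 against 25.39 with senescent MSCs.

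**Figure D5:**
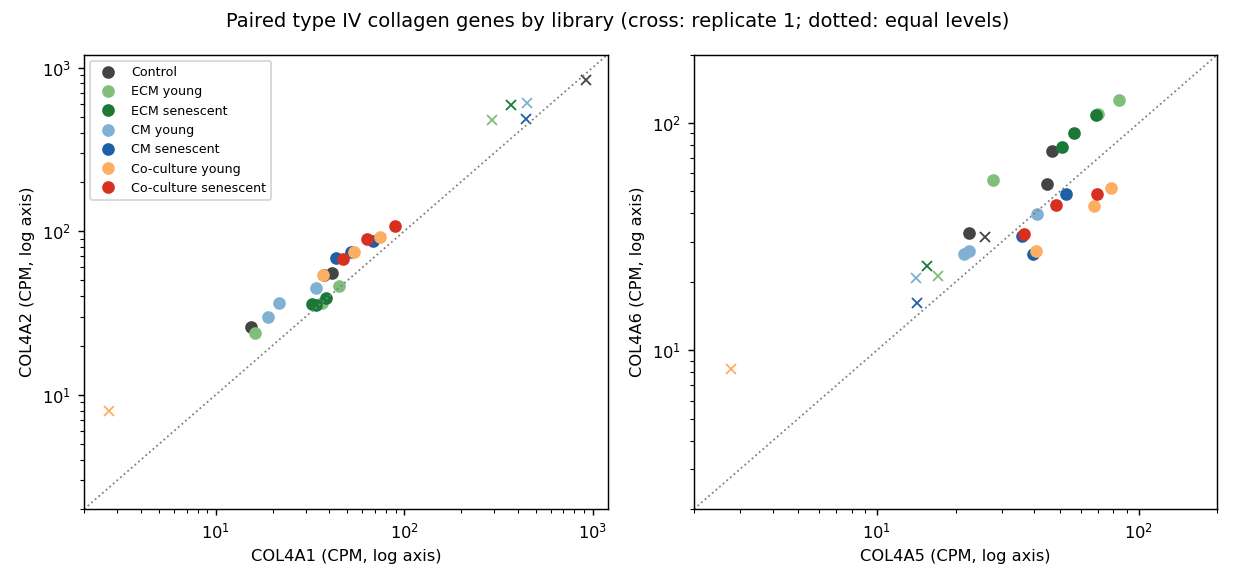
COL4A2 against COL4A1 (left) and COL4A6 against COL4A5 (right) by library (CPM, log axes, not divided by exon length). Dots are replicates 2 to 4, crosses are replicate 1 and the dotted line marks equal CPM. ECM dots lie above the line at right, at ratios of 1.50 to 2.01, and senescent CM and co-culture dots lie below it, at 0.64 to 0.93.

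Genes that make, bind and break collagen were counted in 4 lists. Beside these counts, 6.71% and 5.82% of all genes rose and 2.97% and 2.23% fell with young and senescent MSCs. Of 20 modification and folding genes, 19 were tested and 0 changed on ECM or in CM against control, while 2 rose with young and 3 with senescent MSCs. SERPINH1, the collagen chaperone HSP47, rose by 0.66 ± 0.17 and 0.82 ± 0.17, and P4HA3, a prolyl hydroxylase subunit, by 0.75 ± 0.14 and 0.86 ± 0.14; with senescent MSCs P3H4 also rose (0.81 ± 0.21). P4HA3 was higher in CM than on ECM of both kinds (0.72 ± 0.17 and 1.06 ± 0.17), and SERPINH1 in senescent CM (0.75 ± 0.18).

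Of 14 processing and crosslinking genes, 12 were tested in co-culture and 11 elsewhere. LOX, the lysyl oxidase that crosslinks fibrils, fell in senescent CM against control (-1.198 ± 0.190) and in both co-cultures (-1.07 ± 0.16 and -0.95 ± 0.16). It was 83.4, 57.8 and 84.9 CPM in control and 39.9, 32.8 and 25.2 CPM in senescent CM, and was lower in CM than on ECM of both kinds, as was PCOLCE2 in senescent CM. In young co-culture 3 of 12 rose and 2 fell, and in senescent co-culture 4 rose and 1 fell. ADAMTS2, which removes the N-propeptide of type I procollagen, rose by 3.41 ± 0.35 and 4.74 ± 0.35. BMP1, which removes the C-propeptide, rose by 0.97 ± 0.20 and 1.01 ± 0.20. ADAMTS14 was called with senescent MSCs, at 0.19, 0.26 and 0.34 CPM against 0, 0 and 0.03 CPM in control, and LOXL4 rose by 1.42 ± 0.35. With young MSCs LOXL3 rose by 0.78 ± 0.21 and PCOLCE2 fell by 0.56 on the log2 scale.

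Of 11 genes listed as receptors 8 were tested, and 3 and 4 rose in the co-cultures. MCAM, among them in both, is an adhesion molecule and not an established collagen receptor. ITGA11, an integrin subunit for type I collagen, rose by 1.35 ± 0.20 and 1.08 ± 0.20, ITGA10 by 1.31 ± 0.19 and 0.87 ± 0.19, and MCAM by 1.25 ± 0.20 and 0.73 ± 0.20. ITGA1 rose with senescent MSCs (0.74 ± 0.18). DDR2, a collagen-activated tyrosine kinase, fell in senescent CM against control (-0.88 ± 0.18) and was lower in CM than on ECM of both kinds (-1.29 ± 0.18 and -1.59 ± 0.18). ITGA2 was lower in young CM than on young ECM (-0.93 ± 0.25), and MCAM was higher in CM in both contrasts (1.07 ± 0.18 and 0.78 ± 0.18).

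Of 9 degrading enzymes 6 were tested. MMP1, interstitial collagenase, held 3865, 4168 and 3811 CPM in control. It rose on young ECM (0.69 ± 0.14, adjusted p = 0.0408, edgeR) and fell in senescent CM (-1.35 ± 0.15) and in both co-cultures (-1.68 ± 0.14 and -1.99 ± 0.14). FAP, a gelatin-cleaving surface protease, moved opposite to it: it fell on young ECM (-0.89 ± 0.14) and rose in senescent CM (0.97 ± 0.14) and in both co-cultures (1.27 ± 0.15 and 1.07 ± 0.15). MMP2, a gelatinase, rose in both co-cultures (1.48 ± 0.18 and 1.36 ± 0.18), and MMP3 was the one member of the 4 lists to differ between senescent and young co-culture (2.73 ± 0.28, adjusted p = 0.000958, edgeR).

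The other 18 collagens were too low to be tested in any comparison. COL10A1, COL8A2 and COL9A2 had up to 48, 62 and 60 counts in a library of replicate 1 and no more than 0.14 CPM in replicates 2 to 4. COL4A3 and COL4A4, the third head-to-head type IV pair, with starts 419 bp apart on chromosome 2, had at most 3 and 5 counts. COL2A1, COL11A1 and COL11A2, the cartilage fibrillar collagens, had at most 4, 9 and 3 counts, and COL6A5 and COL6A6 at most 10 and 4. The remaining 8 (COL9A1, COL19A1, COL20A1, COL21A1, COL22A1, COL23A1, COL25A1 and COL26A1) had between 1 and 10 counts at most in any library. A library with 0 counts allows up to 3 counts, by counting error only. COL24A1 was tested in the 7-group fit and COL14A1 in 5 of 14 comparisons, and neither passed.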

How the data were processed

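RNA from 27 libraries of EA.hy926 cells was sequenced after poly(A) selection, per the labels' protocols, with a kit that marks strand. The authors deposited whole-number counts per gene, not normalised. The submitters' processing notes name HISAT2 2.2.1, featureCounts 2.0.1 and GRCh38 (hg38). Not given in the sources used here are the annotation release, the strand setting and the handling of reads with several hits. From 60648 entries, 44 Y copies of pseudoautosomal genes (109832 counts) were left out. A name table gave symbols for 60462 entries, and GENCODE 29 gave exon lengths and positions for 58336.

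Groups were tested with edgeR 4.0.16 in R 4.3.3 (quasi-likelihood F-test, 2-sided, filterByExpr with a minimum of 10 counts, TMM, Benjamini-Hochberg over all genes, threshold 0.05) on replicates 2 to 4. Control, ECM and CM groups shared a fit (15 libraries, 18015 genes), as did control and co-culture (9 libraries, 17729 genes), and the comparison of senescence effects with co-culture used all 7 groups (21 libraries, 18492 genes). SEs are the absolute log2 fold change over the root of F. The steps were tested on simulated data. Alternatives were all replicates, DESeq2 1.42.0, RLE factors, no filter, a replicate block, leaving out each library, 1 fit for all groups, endothelial-marker scaling and CPM without division by length. No library pair in a group agreed within sampling noise (chi-square per degree of freedom of 21.9 or more).

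The members, gene lists and tests were chosen with earlier results of these data known. Collagens were named if past the threshold in any comparison, among the top 3 of their class per kb in control or among the 6 highest in control replicate 1 against replicates 2 to 4, and list genes if among the 3 largest called changes per direction. Others named were chosen after their values were seen.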

Additional observations from a re-analysis of the deposited data

Results flagged for a closer look

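Summed collagen levels were checked for single libraries far from the others of their group in the 6 groups of 4 (36 sets over the 5 classes and the whole family, where chance gives about 1 in 20), and 19 sets held one. In all 19 it was replicate 1, always the highest. The whole family stood at 13370 CPM in control, 7797 on young ECM, 9480 on senescent ECM, 11510 in young CM and 12410 CPM in senescent CM. Fibrillar collagens stood at 8476, 3651, 4349, 7621 and 8463 CPM in the same order, and type VI at 2510, 2988, 3750, 2424 and 2620 CPM. Basement membrane collagens stood out in control (1914 CPM), senescent ECM (1081 CPM), young CM (1162 CPM) and senescent CM (1032 CPM). The part of the stromal markers, which were also high in these libraries, was not tested.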

How the results depend on the processing

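Of 31 called changes of single collagens, all kept direction and call with DESeq2, RLE factors, no filter, the replicate block and 1 fit for all groups, and 27 with endothelial-marker scaling. With replicate 1 included 1 kept its call, 14 lost it and 16 reversed. Counts then were 0 for young CM against young ECM, 1 for senescent CM against senescent ECM and 0 in each co-culture comparison. For young co-culture against control the reversed log2 values were -4.35 (COL1A1), -4.38 (COL1A2), -4.00 (COL3A1), -4.63 (COL5A3), -2.69 (COL6A1), -4.22 (COL6A2), -3.83 (COL6A3) and -3.37 (COL12A1). For senescent co-culture they were -2.93, -2.94, -2.21, -2.86, -1.77, -3.01, -2.92 and -2.88 (adjusted p of 0.366 to 1, edgeR). COL6A1 with young MSCs was -0.0906 under endothelial-marker scaling.

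The counts here and below are given without the number tested or the share of all genes called in each setting. A higher count alone therefore does not mark a change of the collagens. In the order young ECM, senescent ECM, young CM and senescent CM against control, no filter called 3, 2, 1 and 3 collagens. It called 4 between the CM groups, 4 for young CM against young ECM, 17 in each co-culture against control and 7 between the co-cultures. For the senescence effect it called 1 in CM minus ECM, 4 in co-culture minus ECM and 5 in co-culture minus CM. DESeq2 called 1 (COL5A1) in senescent CM against control and against young CM, and 2 and 4 for the effects in co-culture minus those on ECM and in CM. Endothelial-marker scaling outside co-culture, added after the data were seen, called 2 (COL4A6 and COL28A1, both lower) in senescent CM against control, where it moved the median of all genes by -0.48.

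Same-numbered libraries of different groups had correlated deviations over 0.1 in 41 of 63 pairs (median 0.16, lowest -0.21). Libraries of other numbers did so in 23 of 126 pairs (median -0.096), and 19 of 21 libraries correlated best with their own number. The main tests used no replicate block, under a rule that asked every same-numbered pair to pass 0.1. An effect shared by a replicate number therefore stays in their error, and these tests can miss differences that the block calls. The replicate block called 1 (COL5A1) in senescent CM against control and against young CM, 4 for young CM against young ECM (COL4A5 and COL8A1 added), and 4 each for the effects in co-culture minus those on ECM and in CM (COL1A1, COL1A2, COL3A1 and COL6A2).

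Leaving out 1 library gave 0 to 4 for young CM against young ECM, 1 to 2 for senescent CM against senescent ECM, 9 to 13 and 10 to 15 for young and senescent co-culture against control, 1 to 4 between the co-cultures and 0 to 2 for the effect in co-culture minus that in CM (2 without young CM replicate 4). The other counts stayed at 0. The highest, 4, came without young ECM replicate 3, and 13 and 15 came without control replicate 2. The causes were not tested. At this depth 18 collagens were too low to test.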
